A study of Mus musculus with 4 samples.

Results

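The genes of the proteasome were measured in sorted germ cells and in the remaining gonadal cells of mouse fetuses of both sexes. Members were all listed genes with a symbol of the form Psma, Psmb, Psmc, Psmd, Psme, Psmf or Psmg plus a number, leaving out the 2 genes Psmb8 and Psmb9. The rule found 46 of 20299 genes, spread over 16 chromosomes. There were 4 groups with 1 RNA library each, namely germ cells of males, germ cells of females, somatic cells of males and somatic cells of females. All came from gonads at 15.5 days post coitum (dpc), from CF1 mothers mated with TgOG2 males, whose transgene expresses green fluorescent protein (GFP) from the Oct4 promoter in germ cells. GFP-positive cells were collected as germ cells and GFP-negative cells as somatic cells, so the somatic fraction mixed all gonadal cell types without the reporter. Nothing in the labels gives the number of fetuses behind a library. A test of germ against somatic cells sets 2 libraries against 2, 1 of each sex, so its p-value rests on the spread between these 4 libraries, sex differences included.

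Levels are given in SPM (scaled signal per 1000000), the deposited gene value divided by the library total after trimmed-mean scaling. Depth was estimated at 17.6 M to 24.99 M fragments per library (M, 1000000). Ddx4, a germ cell RNA helicase gene, stood at 527 (male) and 383 SPM (female) in germ cells, against 3.81 (male) and 0.467 (female) in somatic cells, so this marker followed the labels. Pou5f1, the gene for Oct4 itself, gave 497 SPM in germ cells of males but 34.5 in those of females. The 5 red blood cell genes summed to 291 (male) and 92.4 SPM (female) in germ cells, against 30194 (male) and 11169 (female) in somatic cells. The GFP-negative fraction thus held red blood cell RNA, and its part in the proteasome values was not tested. In such bulk RNA, fewer cells of a type and less RNA per cell cannot be told apart.

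The proteasome is the main protease of the cytosol and nucleus and degrades proteins tagged with ubiquitin. Its barrel, the 20S core, is built of outer rings of alpha subunits (Psma genes), which gate entry, and inner rings of beta subunits (Psmb genes), of which a few carry the proteolytic sites. The 19S regulatory particle binds ubiquitin, removes it and unfolds the substrate with a ring of ATPases (Psmc genes) held by further subunits (Psmd genes). Dedicated chaperones help to assemble the parts, and the core can instead be capped by activators (Psme genes). In mouse testis, germ cells also use Psma8, a variant of the alpha subunit Psma7, and lack of Psma8 stops male meiosis.

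Many proteasome genes can be driven by the transcription factors Nfe2l1 and Nfe2l2, which read the antioxidant response element, so the bases before the start sites were searched for its core, TGACNNNGC, on both strands. RefSeq promoters (GRCm38.p6) were matched to 38 of the 46 genes. In the 250 bases before the start, 5 of these 38 genes held a match (13.2%), against 11.5% of all 27025 genes with a promoter in the table. The other motif searched, CCAAT, read by the factor NF-Y, was in 13 of 38 (34.2%), against 37.5% of all, and no member held both motifs. Both shares were near those of all promoters. The 5 matches are shown because their genes, which include the catalytic Psmb5 and Psmb6, are among those measured below. Each window is on the strand of its gene, with the match in capitals, and in Psmc6 and Psmd12 the motif reads on the opposite strand.
Psmb5, chr14:54618019-54618057, minus strand: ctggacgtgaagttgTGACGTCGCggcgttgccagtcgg
Psmb6, chr11:70525333-70525356, plus strand: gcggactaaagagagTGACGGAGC
Psmc6, chr14:45329582-45329620, plus strand: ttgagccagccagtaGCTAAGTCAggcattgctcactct
Psmd9, chr5:123228144-123228182, plus strand: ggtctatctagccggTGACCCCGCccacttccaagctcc
Psmd12, chr11:107479278-107479304, plus strand: tctGCTGTGTCAcatttgcccccctca
For comparison, the whole 250 bases before the start are given for Psmd2, the constitutive subunit gene with the highest germ to somatic ratio, and for Psmb10, the member with the lowest. Neither holds either motif in this window.
Psmd2, chr16:20651402-20651651, plus strand: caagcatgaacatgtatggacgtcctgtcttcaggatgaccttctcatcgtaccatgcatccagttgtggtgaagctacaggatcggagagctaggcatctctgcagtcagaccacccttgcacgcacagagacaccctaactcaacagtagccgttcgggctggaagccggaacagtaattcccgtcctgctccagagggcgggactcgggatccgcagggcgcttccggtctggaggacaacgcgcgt
Psmb10, chr8:105938393-105938642, minus strand: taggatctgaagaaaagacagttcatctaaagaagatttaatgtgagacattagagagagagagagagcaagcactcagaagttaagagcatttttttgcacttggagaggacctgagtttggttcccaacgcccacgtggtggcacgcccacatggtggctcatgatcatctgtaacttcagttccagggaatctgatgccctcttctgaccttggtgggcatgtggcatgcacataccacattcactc

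Proteasome mRNA made up a larger part of the germ cell libraries. Summed over the 46 genes it reached 7877 (male) and 6493 SPM (female) in germ cells, against 4271 (male) and 4025 SPM (female) in somatic cells, 1.73-fold more on average. As a share of all signal these genes took 0.843% (male) and 0.620% (female) in germ cells, against 0.404% (male) and 0.416% (female) in somatic cells. An exact two-sided permutation test of 2 libraries against 2 cannot go below p = 0.333, the value found here. The 17 genes of the 19S particle summed to 4341 (male) and 3757 SPM (female) in germ cells, against 2183 (male) and 2011 (female) in somatic cells. For the 17 genes of the 20S core the sums were 2622 (male) and 1798 (female) in germ cells, against 1440 (male) and 1249 (female) in somatic cells.

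**Figure D1:**
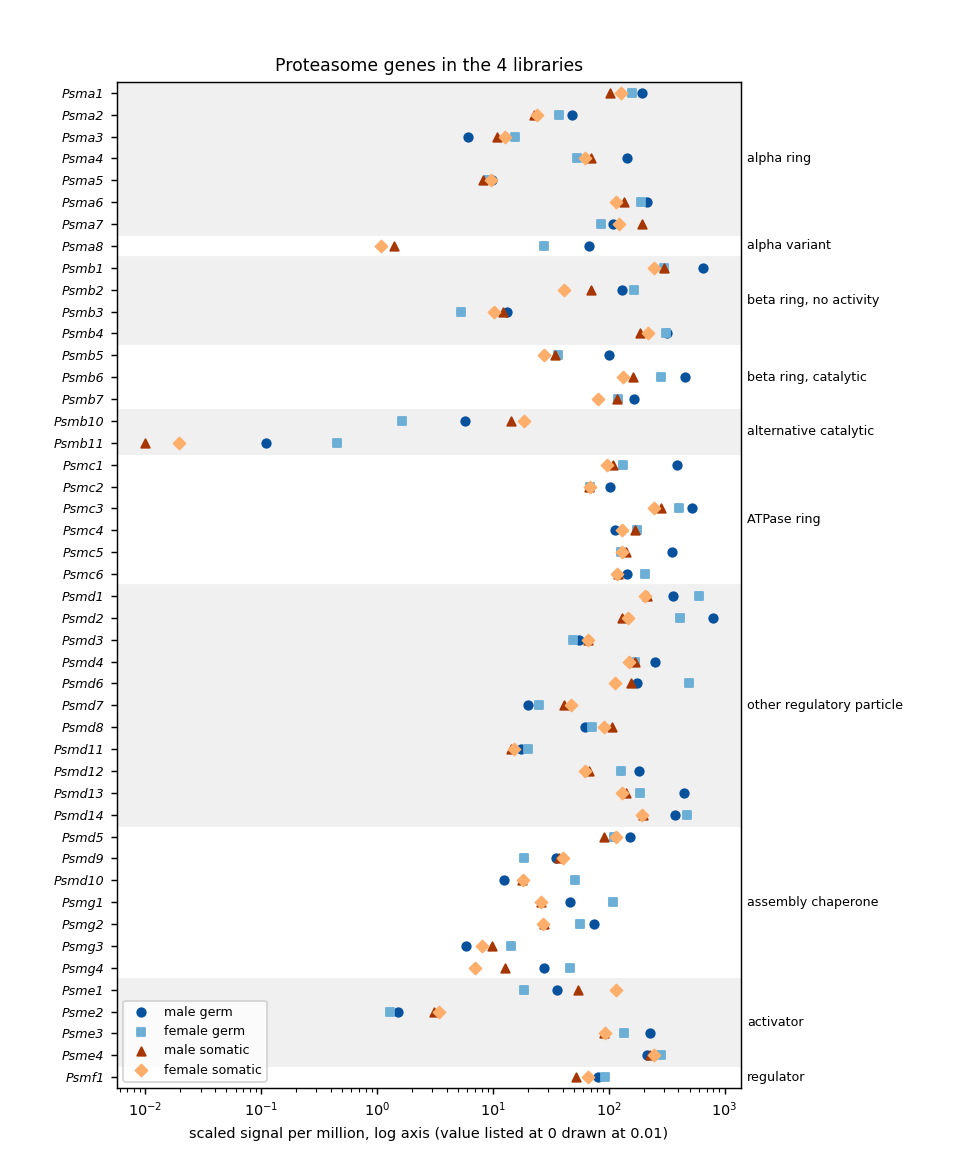
Level in SPM (log axis) of the 46 proteasome genes in each of the 4 libraries (1 point per library), ordered by role, with a value listed at 0 (Psmb11, male somatic cells) drawn at the left edge. Most points of the germ libraries lie right of the somatic ones, with Psma8 widest apart (67.1 and 27.4 SPM in germ against 1.41 and 1.08 in somatic libraries) and Psmb10 and Psme1 the other way.

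Of the 46 genes, 45 reached 1 SPM in at least 2 libraries and were tested for germ against somatic cells with limma over 14148 genes. A single member passed, Psma8, higher in germ cells. None was called lower. At an unadjusted p under 0.05 there were 11 members, 9 higher and 2 lower, against 31.4% of all genes. Over all genes tested, 2.50% passed as higher and 5.56% as lower, so 1 of 45 is near the background. With sex as a term 2 members passed as higher, Psma8 and Psmd2, against 7.73% of all genes, and none as lower, against 13.8%. When the male germ library was left out, 6 members were called higher, against 11.8% of all genes, and when the female germ library was, 6, against 5.80%. When the male or the female somatic one was, 0 were, against 0.304% and 0.262%. By a rule without a minimum gap, both germ libraries stood above both somatic libraries for 27 members, against 28.5% of all genes. The opposite held for 8 members, against 33.8% of all genes, and 10 members overlapped. With upper-quartile scaling 28 members lay above, against 32.5% of all genes, and 5 below, against 30.4%. With 1 library fewer the same rule is looser, and without the female germ library 32 lay above, against 40.1%, and 13 below, against 48.0%. The median log2 ratio of germ over somatic was 0.57 over the members and -0.11 over all genes, and 34 members lay above 0, against 47.0% of all genes. Upper-quartile scaling moved the median of all genes by 0.15 on the log2 scale, and the distance of the members' median to it was 0.69 with the main scaling and 0.70 with that one.

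**Figure D2:**
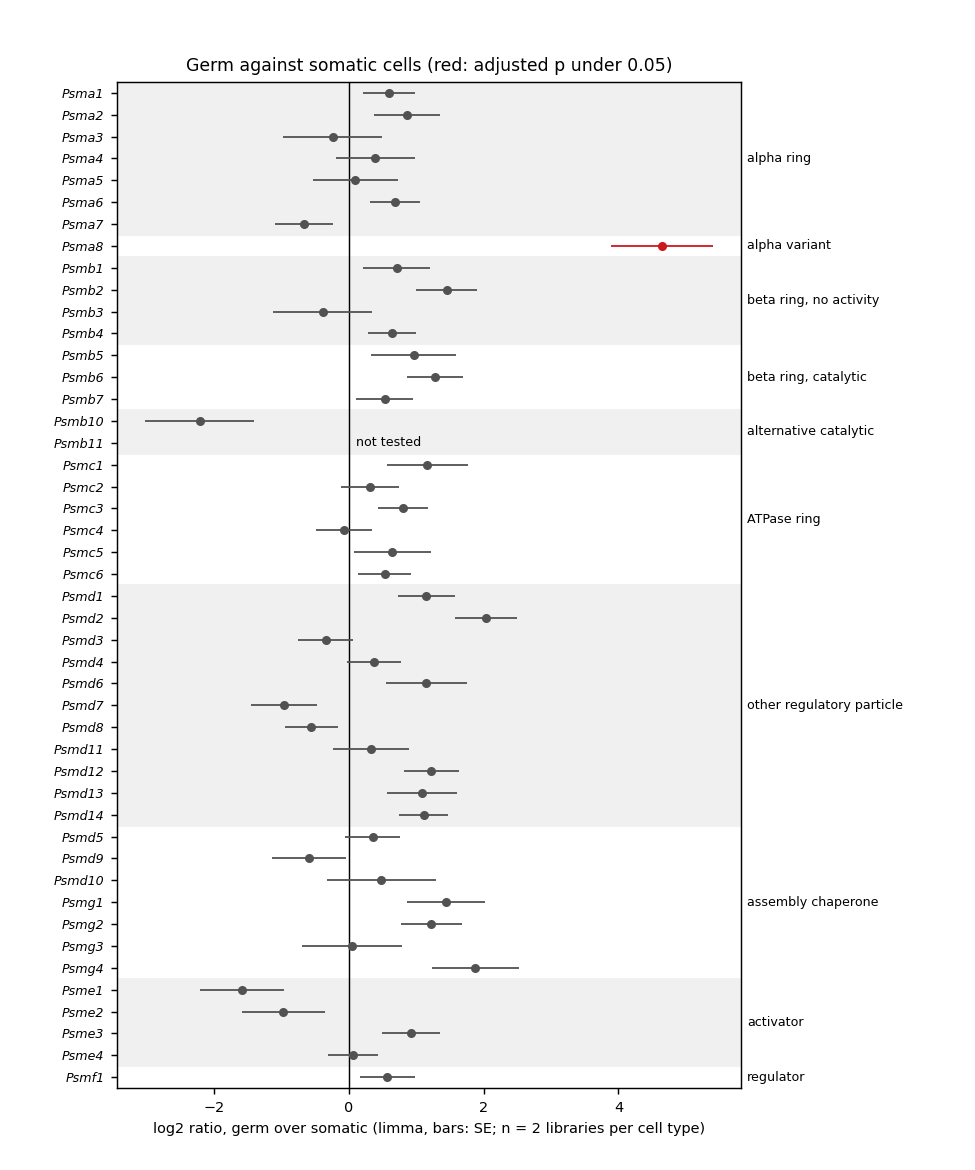
Log2 ratio of germ over somatic cells for the 45 genes tested, by role, as fitted by limma on log2(SPM + 0.5) with SE bars (n = 2 libraries per cell type). Psma8 at 4.64 is the member that passed an adjusted p of 0.05. Of the others, 33 lie above 0 and 11 below.

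The germline alpha variant stood apart. Psma8 (mm9 chromosome 18, 14864659 to 14920808) had 67.1 (male) and 27.4 SPM (female) in germ cells, against 1.41 (male) and 1.08 (female) in somatic cells. Its level was thus high in germ cells of both sexes and low in somatic cells of both, with no overlap. It rose by 4.64 ± 0.75 on the log2 scale (SE over 2 libraries of each cell type, limma adjusted p = 0.0373). The call was lost with no filter on low values (adjusted p = 0.0755), without the male somatic library (0.148) and without the female somatic library (0.150), and over all alternatives the adjusted p ranged from 0.00113 to 0.150. In separate sexes the level was 47.7-fold higher in male germ than in male somatic cells (counting interval 32.2 to 76.7) and 25.3-fold higher in female germ than in female somatic cells (17.3 to 39.1).

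Psma7, the subunit whose place Psma8 can take, lay lower in both germ libraries. It had 109 (male) and 85.7 SPM (female) in germ cells, against 195 (male) and 122 (female) in somatic cells, and did not pass (log2 ratio -0.67 ± 0.43, limma adjusted p = 0.350). Per length of the listed gene, Psma8 made up 24.3% of the summed Psma7 and Psma8 signal in male germ cells and 14.3% in female germ cells, against 0.377% (male) and 0.460% (female) in somatic cells. Of the 7 constitutive alpha ring genes, Psma1, Psma2 and Psma6 stood higher in both germ libraries than in both somatic ones, with log2 ratios from 0.60 to 0.86, and none passed. Psma6 had 213 (male) and 190.2 SPM (female) in germ cells, against 137 (male) and 115 (female) in somatic cells. Psma3, Psma4 and Psma5 overlapped between the cell types.

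The 3 constitutive catalytic genes of the beta ring all lay higher in both germ libraries. Psmb6, which carries the caspase-like site, had 452 (male) and 282 SPM (female) in germ cells, against 163 (male) and 132 (female) in somatic cells (log2 ratio 1.28 ± 0.42, limma adjusted p = 0.114). Psmb5, which carries the chymotrypsin-like site, had 100.05 (male) and 36.6 SPM (female) in germ cells, against 34.1 (male) and 27.9 (female) in somatic cells (0.96 ± 0.63, limma adjusted p = 0.354). Psmb7, which carries the trypsin-like site, had 165 (male) and 119.5 SPM (female) in germ cells, against 117 (male) and 80.7 (female) in somatic cells (0.53 ± 0.43, limma adjusted p = 0.446). The groups do not overlap in any of these 3 genes, but in Psmb5 and Psmb7 the female germ library stood only just above the male somatic one. Among the beta subunits without an active site, Psmb1, Psmb2 and Psmb4 also lay higher in both germ libraries, with Psmb2 at 131 (male) and 164 SPM (female) in germ cells, against 69.8 (male) and 40.9 (female) in somatic cells (1.45 ± 0.46, adjusted p = 0.106). Psmb3 overlapped.

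Of the alternative catalytic genes, Psmb10 lay lower in germ cells and Psmb11 was barely detected. Psmb10 replaces Psmb7 in the immunoproteasome, a form that makes peptides for antigen display and is induced by interferon. Its levels were 5.70 (male) and 1.63 SPM (female) in germ cells, against 14.4 (male) and 18.5 (female) in somatic cells, lower in both germ libraries (log2 ratio -2.21 ± 0.81, limma adjusted p = 0.140). It was the only member at least 2-fold lower in germ cells of each sex, by 2.52-fold in males (2.04 to 3.10) and 11.4-fold in females (7.87 to 17.8), against 21.8% of all 11625 genes that could be called. Per length, the share of Psmb10 in the summed Psmb7 and Psmb10 signal was 2.57% (male) and 1.03% (female) in germ cells, against 8.59% (male) and 14.9% (female) in somatic cells. Psmb11, the catalytic subunit of the thymus, was listed at 0.110 (male) and 0.453 SPM (female) in germ cells, against 0 (male) and 0.0195 (female) in somatic cells. Only the female germ value exceeded the level of 3 fragments in its own library (0.178 SPM), and Psmb11 was not tested.

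Immune cells are a source of Psmb10, so their markers were read beside it. The 6 leukocyte markers summed to 4.63 (male) and 4.82 SPM (female) in germ cells, against 134.8 (male) and 41.7 (female) in somatic cells, and Ptprc, the defining surface marker, was listed at 0 in both germ libraries. Most of the somatic sums was Lyz2 alone (105 male, 29.1 SPM female). Ptprc differed little between the somatic libraries (1.60 male, 1.16 female), and Aif1 went the other way (0.482 male, 0.739 female). The 7 interferon-response genes summed to 145 (male) and 62.0 SPM (female) in germ cells, against 151 (male) and 249 (female) in somatic cells, and none passed limma. The 4 endothelial markers summed to 50.6 (male) and 27.8 SPM (female) in germ cells, against 168 (male) and 241 (female) in somatic cells. Kdr alone was clearly higher in female than in male somatic cells (72.8 male, 182 SPM female). Cdh5 went the other way (66.05 male, 28.2 SPM female), and Pecam1 and Tek differed little (1.07-fold and 1.05-fold). Pecam1 lay slightly higher in both germ libraries (15.9 male, 17.3 SPM female) than in both somatic ones (13.97 male, 14.9 female). The part of these lists in the Psmb10 level was not tested.

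**Figure D3:**
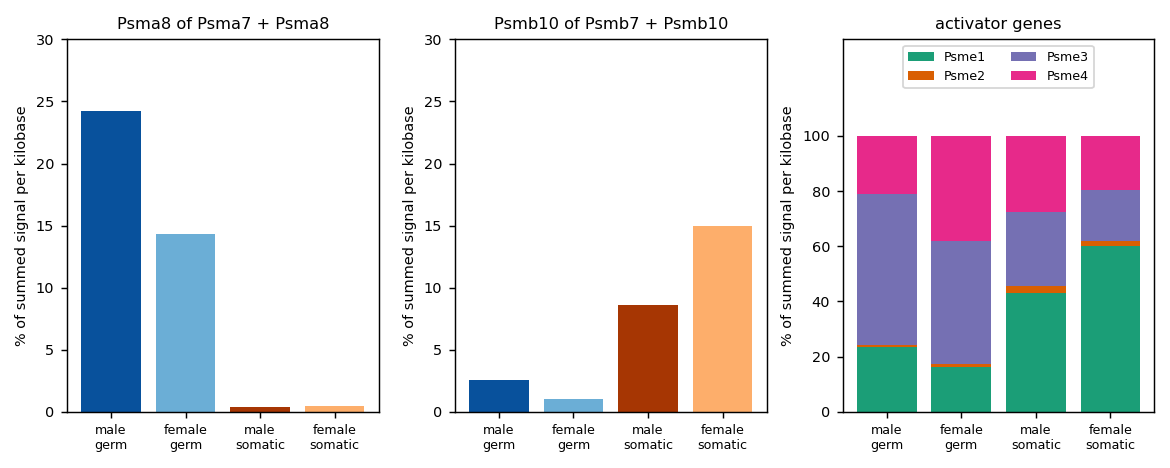
Shares, in % of the summed signal per kilobase, of Psma8 with Psma7 (left), of Psmb10 with Psmb7 (middle) and of the 4 activator genes (right) in each library. Psma8 reaches 24.3% and 14.3% in germ cells, Psmb10 is highest in female somatic cells (14.9%), and Psme3 has its largest share in male germ cells (54.8%).

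In the ATPase ring, 4 of 6 genes lay higher in both germ libraries. These were Psmc1, Psmc2, Psmc3 and Psmc6, with log2 ratios from 0.31 to 1.16, and none passed. Psmc3 had 518 (male) and 408 SPM (female) in germ cells, against 282 (male) and 247 (female) in somatic cells. Psmc1 had 392 (male) and 134 SPM (female) in germ cells, against 108 (male) and 95.9 (female) in somatic cells, so most of its germ excess sat in the male library. Psmc5 was high in male germ cells alone, with 350.1 (male) and 127 SPM (female) in germ cells, against 140.1 (male) and 129 (female) in somatic cells. Psmc4 overlapped.

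The other subunits of the regulatory particle held the member nearest to the threshold after Psma8. Psmd2 (chromosome 16, 20651724 to 20663487), a scaffold that docks ubiquitin carriers at the base of the particle, had 789 (male) and 412 SPM (female) in germ cells, against 130.3 (male) and 147 (female) in somatic cells. Both germ libraries were well above both somatic ones, and the average was 4.33-fold higher (log2 ratio 2.04 ± 0.46, limma adjusted p = 0.0586). Psmd2 passed with sex as a term (limma adjusted p = 0.0161) and with a minimum of 20 SPM (0.0449), but not with no filter on low values (0.0968). With a library left out its log2 ratio ranged from 1.57 (without male germ) to 2.51 (without female germ). Whether it passed then depended on the library left out, because the spread came from the 2 libraries of the other cell type alone. Psmd14, the deubiquitinase that strips ubiquitin from the substrate, had 373 (male) and 474 SPM (female) in germ cells, against 196 (male) and 194 (female) in somatic cells (1.11 ± 0.37, adjusted p = 0.115).

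Psmd1, a large scaffold subunit whose span also holds Htr2b on the opposite strand (at most 3.24 SPM), had 357 (male) and 607 SPM (female) in germ cells, against 212 (male) and 207 (female) in somatic cells. Psmd12, a subunit of the lid of the particle, had 181 (male) and 127 SPM (female) in germ cells, against 67.7 (male) and 62.1 (female) in somatic cells. In total 8 of these 11 genes lay higher in both germ libraries, Psmd4 only just (169.2 SPM in female germ against 169.0 in male somatic cells). The remaining 3, the lid genes Psmd3, Psmd7 and Psmd8, lay lower in both germ libraries, with log2 ratios from -0.96 to -0.34, and none passed. Psmd7 binds Psmd14 in the lid, yet it stood at 19.97 (male) and 25.1 SPM (female) in germ cells, against 41.0 (male) and 47.5 (female) in somatic cells, opposite to Psmd14. The lid genes thus had ratios of both signs.

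Among the 7 assembly chaperones, the 3 that lay higher in both germ libraries belong to the set that builds the core. Psmg1 and Psmg2 form a pair that starts the alpha ring, and Psmg3 and Psmg4 form another. Psmg4 had 27.8 (male) and 46.3 SPM (female) in germ cells, against 12.7 (male) and 6.99 (female) in somatic cells (log2 ratio 1.87 ± 0.64, limma adjusted p = 0.124). Psmg1 had 46.7 (male) and 109 SPM (female) in germ cells, against 25.97 (male) and 26.1 (female) in somatic cells, and Psmg2 75.2 (male) and 56.3 SPM (female) in germ cells, against 27.8 (male) and 27.3 (female) in somatic cells. Psmg3, the partner of Psmg4, overlapped (0.05 ± 0.74). Of the chaperones of the ATPase ring, Psmd5 and Psmd10 overlapped and Psmd9 lay lower in both germ libraries (-0.60 ± 0.55, limma adjusted p = 0.510). None of the 7 passed.

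The activators differed among themselves in direction, and none passed. Psme3, a nuclear activator that works without ATP, had 226 (male) and 134.7 SPM (female) in germ cells, against 90.3 (male) and 93.6 (female) in somatic cells (log2 ratio 0.92 ± 0.43, limma adjusted p = 0.219). Psme1, which forms the interferon-inducible activator with Psme2, had 36.1 (male) and 18.5 SPM (female) in germ cells, against 53.8 (male) and 115 (female) in somatic cells (-1.59 ± 0.62, limma adjusted p = 0.159). Psme2 was low everywhere, with 1.53 (male) and 1.30 SPM (female) in germ cells, against 3.09 (male) and 3.43 (female) in somatic cells. Psme4, the large activator found in testis proteasomes together with Psma8, did not separate the cell types, with 213 (male) and 283 SPM (female) in germ cells, against 226 (male) and 246 (female) in somatic cells (0.06 ± 0.37). Per length, the share of Psme3 in the activator signal was 54.8% (male) and 44.6% (female) in germ cells, against 27.1% (male) and 18.4% (female) in somatic cells. The share of Psme1 was 23.3% (male) and 16.3% (female) in germ cells, against 43.0% (male) and 60.1% (female) in somatic cells. The core-binding regulator Psmf1 had 81.0 (male) and 93.6 SPM (female) in germ cells, against 51.9 (male) and 65.7 (female) in somatic cells (0.57 ± 0.41, limma adjusted p = 0.393).

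With the sexes taken apart, 6 members were at least 2-fold higher in germ than in somatic cells both in males and in females, against 12.2% of all genes. They were Psma8, Psmb6, Psmd2, Psmd12, Psmg2 and Psmg4. In males 14 of 44 members were at least 2-fold higher in germ cells, against 24.4% of all genes, and 2 lower, Psmb10 and Psmd7, against 32.1%. In females 12 of 44 were higher, against 27.2%, and 3 lower, Psmb10, Psmd9 and Psme1, against 34.0%. By a rule of 1.5-fold, 25 members were higher in germ cells of males, against 32.8% of all genes, and 6 lower, against 40.3%. In germ cells of females the 1.5-fold rule gave 17 higher, against 36.0%, and 5 lower, against 40.0%. With upper-quartile scaling the count of members at least 2-fold higher in germ cells of males was 22, against 31.3% of all genes. These ratios set 1 library against 1 and have no replicate check. Psmd2 stood 6.05-fold higher in male germ than in male somatic cells (5.79 to 6.33) and 2.80-fold higher in female germ than in female somatic cells (2.69 to 2.91). The next largest ratios in males were 3.62-fold for Psmc1 (3.44 to 3.81), 3.13-fold for Psmd13 (2.998 to 3.28) and 2.94-fold for Psmb5 (2.68 to 3.22), with Psmd7 2.06-fold lower in germ cells. In females Psmg4 stood 6.63-fold higher (5.61 to 7.83) and Psmg1 4.18-fold higher in germ cells (3.82 to 4.58), with Psme1 6.21-fold lower (5.53 to 7.01) and Psmd9 2.17-fold lower. Psmb2 gave 1.88-fold in males (1.76 to 2.01) and 4.02-fold in females (3.74 to 4.32). Psmd6 gave 1.13-fold in males (1.08 to 1.19) and 4.36-fold in females (4.18 to 4.55).

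Between male and female germ cells, members at least 2-fold apart lay in both directions and were a smaller share than among all genes. At this stage germ cells rest in mitotic arrest in the testis and have entered meiosis in the ovary. By the rule of at least 2-fold with at least 5 SPM in the higher library, 9 of 44 members were higher in male germ cells, against 26.8% of all genes, and 5 lower, against 26.3%. At 1.5-fold the counts were 14, against 34.4%, and 8, against 37.1%. This comparison again has 1 library on each side. The median log2 ratio of male over female germ cells was 0.35 over 45 members and 0.04 over all genes. Plain library totals gave a members' median of 0.51 and upper-quartile scaling 0.62. A scaling factor moves every gene of a library alike, so the median of all genes shifts too, and it was not recomputed.

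The members higher in male germ cells were spread over the particle. Psmc1 was 2.93-fold higher in male than in female germ cells (2.80 to 3.07), Psmc5 2.75-fold (2.63 to 2.89), Psmb5 2.73-fold (2.50 to 2.99) and Psma4 2.69-fold (2.50 to 2.90). Psmb10 stood 3.51-fold higher (2.37 to 5.60), although at a low level. Psma8, Psmb1, Psmb3 and Psmd13 were 2.45-fold, 2.13-fold, 2.52-fold and 2.36-fold higher. The lid subunit gene Psmd13 thus had 444 SPM in male against 188 in female germ cells, with 142 (male) and 130.1 (female) in somatic cells. The span of Psma4 overlaps that of Cdkn2d on the opposite strand, which was listed with a span of most of the chromosome and had 21.1 SPM in germ cells of males and 63.5 in those of females. In Psmc1, Psmc5, Psmb5 and Psmb1 the female germ level was close to the somatic ones, and the male germ library was the one apart.

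The members lower in male germ cells included 3 assembly chaperones. Psmd10, also known as the oncoprotein gankyrin and the only X-linked member, had 12.5 SPM in germ cells of males and 50.7 in those of females, a 4.07-fold difference (3.58 to 4.63), with 17.7 (male) and 18.2 (female) in somatic cells. The 553 X-linked genes tested had a median log2 ratio of -0.36 for male over female germ cells and 0.00 for male over female somatic cells, and their part in the Psmd10 value was not tested. Psmg1 was 2.34-fold lower in male than in female germ cells (2.18 to 2.51) and Psmg3 2.47-fold lower (2.02 to 3.05). The lid gene Psmd6 had 175 SPM in male against 495 in female germ cells, with 155 (male) and 114 (female) in somatic cells, so here the female germ library was the one apart. Psma3 had 6.15 (male) and 15.5 SPM (female) in germ cells. Over role groups, the median log2 ratio of male over female germ cells was 0.68 for the 3 catalytic beta genes, 0.45 for the ATPase ring, -0.18 for the other regulatory particle genes and -0.73 for the assembly chaperones.

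**Figure D4:**
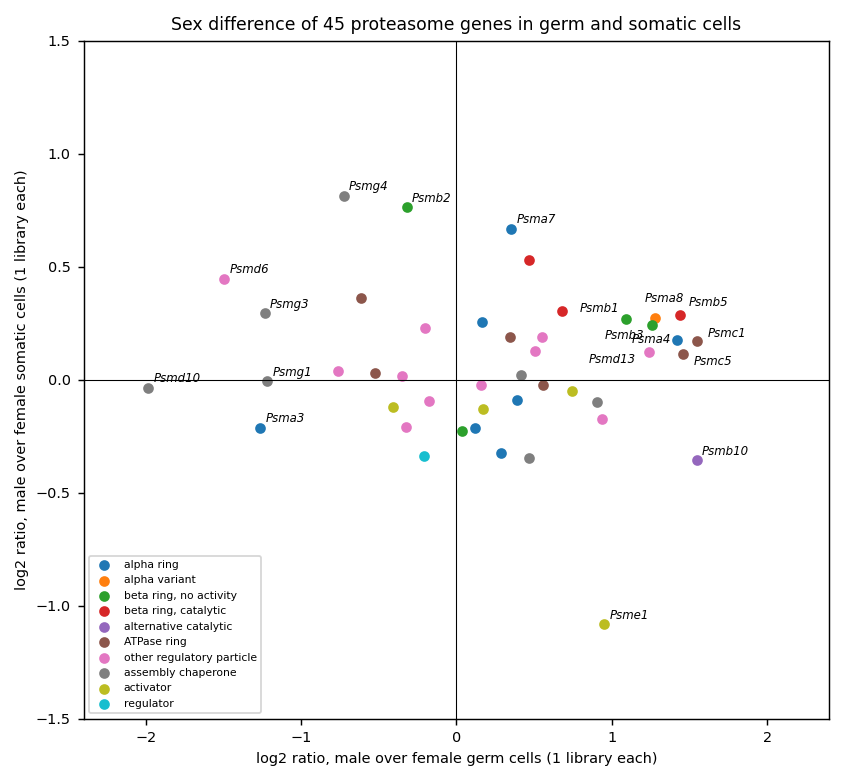
Log2 ratio of male over female germ cells (horizontal axis) and of male over female somatic cells (vertical axis) for 45 proteasome genes, 1 library per group, coloured by role. Points spread from -1.98 (Psmd10) to 1.55 (Psmc1) along the germ axis and stay nearer to 0 along the somatic axis, with Psme1 (-1.08) and Psmg4 (0.81) at its ends.

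Male and female somatic cells had nearly the same levels of most members. None was at least 2-fold higher in male somatic cells, against 9.61% of all genes, and 1 of 43 was lower, Psme1, against 8.26%. Psme1 had 53.8 SPM in male against 115 in female somatic cells, 2.13-fold lower in males (1.98 to 2.30). In 41 of 45 members the difference was under 1.5-fold, against 66.5% of all genes. At 1.5-fold, 3 of 43 were higher in males, against 17.3% of all genes, and 1 lower, against 15.5%. The 3 were Psma7 at 1.59-fold (1.51 to 1.67), Psmb2 at 1.71-fold (1.57 to 1.86) and Psmg4 at 1.81-fold (1.47 to 2.22). The median log2 ratio was 0.03, or -0.10 with plain library totals. In germ cells 23 of 45 members differed by under 1.5-fold between the sexes, against 31.4% of all genes. With cell type as a term, limma called no member for sex. Of all 14148 genes it called 19 as higher in males (0.134%) and 0 as lower (0.00%).

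Levels of different subunits were compared per length, as SPM per kilobase of the listed gene length. Although the subunits of the core are present in equal number, as are those of the 19S particle, the 31 constitutive genes of both ranged widely. The median was 130 (male) and 119 (female) in germ cells, against 75.7 (male) and 63.9 (female) in somatic cells. The highest was Psmb1 in male germ cells (621), male somatic cells (285) and female somatic cells (237), and Psmd6 in female germ cells (379). The lowest was Psma3 in male germ cells (4.30), Psmb3 in female germ cells (7.20) and Psma5 in male and female somatic cells (6.68 and 7.80). Highest over lowest was 144-fold and 52.7-fold in male and female germ cells, against 42.7-fold and 30.4-fold in male and female somatic cells. The summed signal of the core over that of the 19S particle, per length, was 1.03 (male) and 0.828 (female) in germ cells, against 1.08 (male) and 1.02 (female) in somatic cells.

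The genes at the low end had near-identical copies elsewhere in the genome. How the authors' counting treated reads that a gene shares with a copy is not known here, and its part in these levels was not tested. Transcripts were aligned to all annotated transcripts (GENCODE M21), and a copy was another gene with at least 90% identity over at least 50% of the length. Of the 46 members, 11 had a copy, each with at least 1 annotated pseudogene among them. Psmb3 had 7, Psma3 3, and Psma5 and Psmb5 2 each. In the constitutive set, 4 genes averaged under 20 SPM per kilobase, Psma3, Psma5, Psmb3 and Psmd11, and all 4 had a copy. The median level of the 10 genes with a copy was 65.6, and that of the 21 without was 119. Their median log2 ratios of germ over somatic cells were 0.68 and 0.64. Psme2, the least abundant activator, had a copy of 99.4% identity, so its low level is uncertain in the same way. So are the levels of the other members with a copy, among them Psmd2, whose closest copy was 96.4% identical. Of those higher in male than in female germ cells, Psmb5 (98.9%), Psmb3 (97.1%), Psma4 (96.8%) and Psmc1 (95.6%) had such copies.

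**Figure D5:**
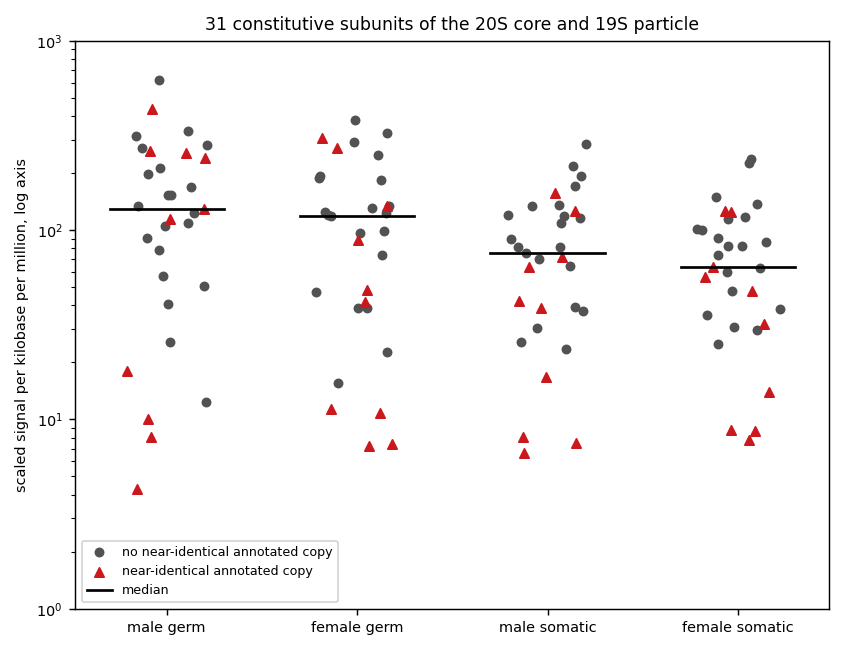
SPM per kilobase (log axis) of the 31 constitutive core and 19S subunit genes in each library. Bars are medians (130, 119, 75.7 and 63.9 from left to right), and triangles are the 10 genes with a near-identical annotated copy (the 3 lowest points in every library are such genes).

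Genes that work with the proteasome, from a list of 21 of which 20 were in the files, gave no call. Over all genes tested 2.50% were called higher and 5.56% lower, so no call among 20 is near the background. The listed genes lay on both sides, with 13 of 20 above 0, against 47.0% of all genes. Their median log2 ratio was 0.23, against -0.11 over all genes. Nfe2l1, the factor that raises proteasome gene transcription when the proteasome is impaired, had 175 (male) and 156 SPM (female) in germ cells, against 131 (male) and 174 (female) in somatic cells (0.12 ± 0.38, limma adjusted p = 0.854). Ngly1, the enzyme that takes sugars off Nfe2l1 and so activates it, had 12.5 SPM in male against 193 in female germ cells, with 39.7 (male) and 44.4 (female) in somatic cells. Nfe2l2, the related stress factor, had 25.7 (male) and 25.3 SPM (female) in germ cells, against 66.1 (male) and 102 (female) in somatic cells (-1.67 ± 0.47, adjusted p = 0.0854). The ubiquitin carrier gene Ubqln4 had 23.8 (male) and 19.5 SPM (female) in germ cells, against 77.2 (male) and 87.9 (female) in somatic cells (-1.91 ± 0.45, adjusted p = 0.0625). By the 2-fold rule Ubqln1 was higher in male germ cells, with 290.4 SPM against 123 in female germ cells, and Ubqln2, Uchl5, Usp14 and Ngly1 were lower. Of all genes, 26.8% were higher and 26.3% lower by this rule. Ubqln2 had 1.82 SPM in male germ cells against 13.4 in female germ cells. Uchl5 and Usp14 encode the deubiquitinases that dock on the 19S particle, and stood at 9.51 and 44.5 SPM in male germ cells, against 28.9 and 102 in female germ cells.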

How the data were processed

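RNA of 4 libraries (1 per group) was analysed. The authors deposited 1 file per library with position, strand, symbol, length and a value for 20373 gene rows. The column is named counts, but its whole-number values cluster at a spacing of 4.09 to 6.115 and the totals are nearly equal, so the authors' values were treated as a scaled signal, and no count test was used. Per the submitters' processing notes, CASAVA 1.9, TopHat 1.2.0, edgeR and mm9 were used, without roles. The sources used here give neither the counting program nor the annotation nor whether strand was used.

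Repeated rows (74) were dropped. Signal was scaled to SPM with trimmed-mean factors. Limma 3.58.1 (R 4.3.3), with its trend option, was fitted to log2(SPM + 0.5) of genes at 1 SPM in at least 2 libraries, and p-values were adjusted by Benjamini-Hochberg. This scale understates changes of low genes. The script was first run on simulated data with 1 common spread for all genes, which checks the code and not the calls made here. Each library's spacing was read as 1 fragment. Counting intervals are exact conditional binomial 95% intervals on such fragments and cover counting error only. Comparisons of 1 library with 1 have no p-value. Copies were found with blastn 2.17.0. Alternatives covered scaling, pseudocount, filters, sex as a term, fold rules and leaving out each library. Genes named by rule were members past the limma threshold, up to 5 called in each direction of a comparison of 1 library with 1, the 3 highest and 3 lowest germ to somatic ratios, members of special role, the per-length extremes, and pathway genes called between male and female germ cells, of which 1 is not reported here. Others were named after their values were seen, to illustrate a role. The members and lists were chosen with earlier results of these data known.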

Additional observations from a re-analysis of the deposited data

Results flagged for a closer look

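In Psme1 and Psmg4 the male to female difference ran in opposite directions in germ and somatic cells, by at least 1.5-fold each way, which drew attention to them. Psme1, the interferon-inducible activator gene, had a log2 ratio of male over female of 0.95 in germ cells and -1.08 in somatic cells. Psmg4, the assembly chaperone gene, had -0.73 in germ cells and 0.81 in somatic cells. With 1 library per group the difference between these effects was not tested. The rule was applied with the main scaling only. Plain library totals and upper-quartile scaling raise male over female ratios in germ cells, and Psmg4 then falls under 1.5-fold there. The share of all genes that meet the rule was not counted.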

How the results depend on the processing

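The germ to somatic ratio was recomputed under 12 alternatives for 37 of the 45 members tested, and under 11 for the 8 members that a minimum of 20 SPM leaves out. In every alternative run for them, 36 members kept their direction. The 9 others changed sign in at least 1. Psmc4 (-0.07) became 0.088 with upper-quartile scaling and 0.034 with median-ratio size factors. With a library left out, the members that changed sign ranged from -0.87 (without female germ) to 0.39 (without male germ) in Psma3, from -0.32 (without male germ) to 1.105 (without female germ) in Psma4, and from -0.012 (without male somatic) to 0.20 (without female somatic) in Psma5. The range was -1.02 (without male germ) to 0.24 (without female germ) in Psmb3, -0.38 (without female germ) to 0.24 (without male germ, 0.11 without male somatic) in Psmc4, and -0.083 (without male germ) to 1.38 (without female germ) in Psmc5. It was -0.51 (without female germ) to 1.47 (without male germ) in Psmd10, -0.15 (without female germ, -0.0013 without male somatic) to 0.27 (without male germ) in Psme4, and -0.57 (without female germ, -0.096 without female somatic) to 0.67 (without male germ) in Psmg3. Psma8 ranged from 4.01 to 5.28 when a library was left out. A lone library left in a cell type was assumed to vary like the others.

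The number of all genes called for germ against somatic cells, 1140, was 0 of 18703 with no filter on low values (limma, 4625 at an unadjusted p under 0.05), 3049 with sex as a term, and 64 to 3597 when a library was left out. The count of members called higher, 1, was 0 with no filter, against 0.00% of all genes. It was 2 with a minimum of 20 SPM, against 4.17%, and 2 with sex as a term, against 7.73%. With all 4 libraries kept, no member was called lower. Of all genes, 10.7% were called lower with a minimum of 20 SPM and 13.8% with sex as a term. The count of the 20 pathway genes called was also 0 in each fit with all 4 libraries. Each of these counts changed when some library was left out. The members' median log2 ratio, 0.57, was 0.73 with upper-quartile scaling and 0.42 to 0.66 when a library was left out. The count with both germ libraries below both somatic was 5 with upper-quartile scaling and 8 to 13 when a library was left out. The cause of these shifts was not tested.

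The share of all genes was not counted for the 4-fold and 20 SPM rules, so those counts of members have no background here. For male against female germ cells, the 1.5-fold, 4-fold and 20 SPM rules gave 14, 0 and 7 members higher and 8, 1 and 3 lower. The median of 0.35 was 0.51 with plain totals and 0.62 with upper-quartile scaling, which also shift all other genes. For somatic cells the 1.5-fold rule gave 3 higher and the 4-fold rule 0 lower, with a median of -0.10 from plain totals. For male germ against male somatic cells, 22 (upper-quartile), 25 (1.5-fold) and 2 (4-fold) were higher. There 1 was lower with plain totals, upper-quartile scaling, median-ratio factors or 20 SPM, 6 at 1.5-fold and 0 at 4-fold, and the median of 0.64 was 0.82, 0.96 and 0.76 with these 3 scalings. Of all genes, 28.7%, 26.3% and 29.6% were lower with the same 3 scalings. For female germ against female somatic cells, 5 were higher at 4-fold, 5 were lower with plain totals or at 1.5-fold, and plain totals gave a median of 0.36. With plain totals 35.8% of all genes were lower in that comparison. The log2 ratio of summed levels was 0.97 with upper-quartile scaling for all members (0.79 as reported). For the 19S particle (0.95) it was 1.13 with that scaling, 1.06 with median-ratio factors and 0.82 without its highest member, and for the chaperones (0.72) 0.88, 0.82 and 0.95. Leaving out the members with a copy or an overlapping gene, chosen after seeing the data, kept each count within 1.5 times. Counts fall by the removal itself (34 to 25 above 0), so this limit says little about stability. The median log2 ratio of germ over somatic of the members left was 0.59.

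The fit with sex as a term pairs the germ with the somatic library of each sex. No paired analysis was possible by replicate number, because each group has 1 library. At the depth of these libraries 3 fragments amount to 0.112 to 0.181 SPM.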
